A study of Mus musculus with 8 samples.

Results

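The kinase genes Fgr, Styk1, Src, Yes1, Fyn, Lyn, Lck, Frk and Csk were followed in RNA-seq libraries of biliary cells sorted from mouse liver. These were 9 of the 46603 rows of the count table. The group was put together because Fgr and Styk1 had no reads in the EGFP-negative libraries of this same comparison, so their values are given here as a description, without a test. The other 7 genes were taken as relatives or regulators of Fgr.

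The livers came from 4 mice at 8 weeks of age, each heterozygous for R26rtTA and for H2B-EGFP, on a mixed C57BL/6 and CBA background. H2B-EGFP is a fluorescent histone 2B whose promoter answers to rtTA in the presence of doxycycline, and rtTA was driven from Rosa26, a locus active in most cell types. All 4 mice received doxycycline through the nursing mother from postnatal day 0 to day 5, and the label was afterwards diluted at each cell division. After depletion of CD45+ cells on beads, cells that were EpCAM+ and CD45- were sorted into an EGFP-positive fraction, the liver label-retaining cells (LLRC), and an EGFP-negative fraction, the non-LRC. Each mouse (JV602, JV621, JV624 and JV6314) gave 1 library of either fraction, so each group had 4 libraries and the groups were paired by mouse. The fusion gene is reported to be leaky in haematopoietic cells, where green signal need not mark slow division, and EGFP-negative cells may have divided or may never have been labelled.

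Src family kinases are cytoplasmic tyrosine kinases held at the inner face of the membrane by a lipid anchor. An amino-terminal SH3 and SH2 pair folds over the kinase domain when a tyrosine in the tail is phosphorylated, and this closes the enzyme. Csk places that phosphate and phosphatases such as CD45 take it off. Src, Yes1 and Fyn are used widely, including downstream of integrins and growth factor receptors in epithelium, Frk is a related kinase of epithelial cells, Lyn and Fgr are best known from myeloid and B cells, and Lck from T cells. Styk1 encodes a membrane-spanning protein with a kinase-like domain and is not a member of the Src family.

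The LLRC libraries held 7860021 to 9851819 counts and the non-LRC libraries 4670132 to 8056103. At least 1 read was counted for 18488 to 20430 genes in the LLRC libraries and for 14234 to 18930 in the non-LRC libraries, the lowest being the non-LRC libraries of JV621 (14234) and JV6314 (16042). Values are given as CPM (counts per 1000000 of the library) after scaling by TMM, a method that lines up the bulk of genes between libraries. A floor of 3 counts, taken as an approximate upper limit for a count of 0, was 0.291 to 0.626 CPM. It covers counting error only, and a higher level can still give a count of 0. Epcam, the surface marker of the sort, stood at 583 CPM in the LLRC and 551 CPM in the non-LRC libraries on average. Of the 15 cholangiocyte markers 11 had a higher mean in LLRC and 4 a lower one. None was past the threshold of edgeR's quasi-likelihood test, which is called edgeR's test here and below. Most of their sum, 116000 to 223000 CPM in LLRC and 67000 to 165000 CPM in non-LRC, was Spp1, at 168000 and 117000 CPM on average.

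Fgr (ENSMUSG00000028874) lay on chromosome 4 from 132974095 to 133001910 on the plus strand (GRCm38), between Fam76a and Ahdc1, with 3863 bases of exon and no overlapping gene. To show why its reads can be told from those of its relatives, the longest stretch that the coding part of its transcript (GENCODE M21) shared with that of another kinase of the group is printed for 4 of them, without capitals since no letter is marked.
Fgr and Src: gtgtggtcctttgggattctgct
Fgr and Fyn: gacaagctggtgcagct
Fgr and Lck: tcagacgtgtggtcctt
Fgr and Styk1: tggtcctttgggat
The run shared with Src was 23 bases, those with Fyn and Lck 17 bases, and that with Styk1 14 bases. Those with Lyn (15 bases), Yes1 (14) and Frk (12) were as short, and the longest run shared with Csk (12 bases) did not lie within the coding part of Fgr. None of the 3830 runs of 30 bases in the Fgr transcripts occurred in a transcript of any other gene, and no run of 30 bases was shared between any of the 9 kinases. This was also so for Src, Fyn, Lck and Csk, which shared no such run with any gene. Lyn shared 23.1% of its runs with other genes, most of them with Gm11787, annotated as a pseudogene, which held 11 to 34 counts per library, and with Gm26857, and Yes1 shared 9.88%, most of them with Gm10461. Frk shared 0.455% and Styk1 1.18%.

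The 250 bases before the start sites of Fgr and Frk are printed because Fgr had no reads in 1 group and Frk was the most abundant of the 9 genes per length in both. They are RefSeq sequences on GRCm38.p6, at chr4:132973845-132974094 and chr10:34483150-34483399, both on the plus strand. Capitals mark matches, on either strand, to any of 6 motifs searched. GAGGAA is the core bound by PU.1, CCGGAA is a core of other ETS factors, TATAAA is the TATA box and GGGCGG is the GC box. The other motifs were CCAAT, the site named after its letters, and TGACTCA, the site of AP-1.
Fgr promoter: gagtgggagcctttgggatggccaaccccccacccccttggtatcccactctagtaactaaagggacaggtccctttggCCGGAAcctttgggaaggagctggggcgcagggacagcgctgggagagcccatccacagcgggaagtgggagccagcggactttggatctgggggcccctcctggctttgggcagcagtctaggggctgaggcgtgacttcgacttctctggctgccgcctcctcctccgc
Frk promoter: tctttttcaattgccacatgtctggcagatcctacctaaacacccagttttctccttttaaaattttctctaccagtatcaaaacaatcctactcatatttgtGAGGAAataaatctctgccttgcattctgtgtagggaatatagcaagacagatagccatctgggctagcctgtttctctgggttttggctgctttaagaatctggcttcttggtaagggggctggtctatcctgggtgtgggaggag
The Fgr sequence had 64.4% G and C, 9 CG pairs and 1 match, CCGGAA at position -171 from the start site. The Frk sequence had 43.2% G and C, 0 CG pairs and 1 match, GAGGAA at -147. Of 32851 promoter windows of the same length, 12.0% held CCGGAA and 23.3% GAGGAA, and the median window had 52.4% G and C. The table held a promoter for 7 of the 9 genes, all but Lyn and Styk1. Those of Yes1 and Src were richer, with 77.2% and 82.8% G and C and 37 and 40 CG pairs.

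Fgr was read in every LLRC library and in no non-LRC library. Its counts were 41 in JV602, 19 in JV621, 24 in JV624 and 39 in JV6314 among the LLRC libraries, and 0 in the 4 non-LRC libraries. On the CPM scale these were 3.97, 2.25, 3.53 and 4.33, with a mean of 3.52 ± 0.91 (SD, n = 4). The groups did not overlap, which is how Fgr was chosen (every LLRC library was above every non-LRC library for 2.15% of the genes tested), and the LLRC libraries differed little from one another, with JV621 the lowest.

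The depth of the non-LRC libraries was set beside these counts. The mean LLRC level of Fgr, multiplied by their scaled library sizes, corresponds to 28.1 counts in JV602, 16.9 in JV621, 22.3 in JV624 and 17.8 in JV6314. The part of the lower number of genes detected in the non-LRC libraries of JV621 and JV6314, where Fyn and Lck had 0 to 2 counts, was not tested. Set against 3 counts in each non-LRC library, the LLRC mean was 6.81-fold higher, and between 5.97-fold and 8.21-fold when both libraries of a mouse were left out in turn. Within single mice the fold against 3 counts was 10.6 in JV602, 3.59 in JV621, 7.45 in JV624 and 7.31 in JV6314. In bulk libraries such as these, a smaller share of cells with a transcript and less transcript per cell cannot be told apart. Among all rows of the table, 15 (0.0322%) had no non-LRC read and at least the 123 counts of Fgr over the LLRC libraries, 22 (0.0472%) had the mirrored pattern, and 3 (0.00644%) had no non-LRC read and at least 19 counts in each LLRC library. Both the folds and these cut-offs rest on the values by which Fgr was chosen, so they describe the gene and test nothing.

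Styk1 (ENSMUSG00000032899; chromosome 6, 131299142 to 131353597, minus strand, between Magohb and Ybx3) was far less even. Its counts were 14 in JV602, 157 in JV621, 0 in JV624 and 65 in JV6314 among the LLRC libraries, and 0 in the 4 non-LRC libraries. On the CPM scale the LLRC values were 1.36, 18.6, 0 and 7.22. The LLRC library of JV624 was thus level with the non-LRC libraries, the groups overlapped at 0, and the gene had too few libraries with reads to enter the test.

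The library of JV621 held 68.4% of the summed Styk1 level of the LLRC, and the mean fell from 6.79 CPM to 2.86 CPM without it. Against 3 counts in each non-LRC library the LLRC mean was 13.1-fold higher, 5.95-fold without both libraries of JV621 and 17.0-fold without those of JV624. Within mice the fold against 3 counts was 29.6 in JV621, 12.2 in JV6314 and 3.61 in JV602, and JV624 had no read in either library. As for Fgr, these folds rest on the values by which the gene was chosen and are a description only. Fgr and Styk1 did not rank the mice alike: JV621 was the lowest of the 4 LLRC libraries for Fgr and the highest for Styk1. The member nearest to having no non-LRC reads was Lck, with 31 in all, ahead of Fyn with 57 and Src with 80.

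**Figure D1:**
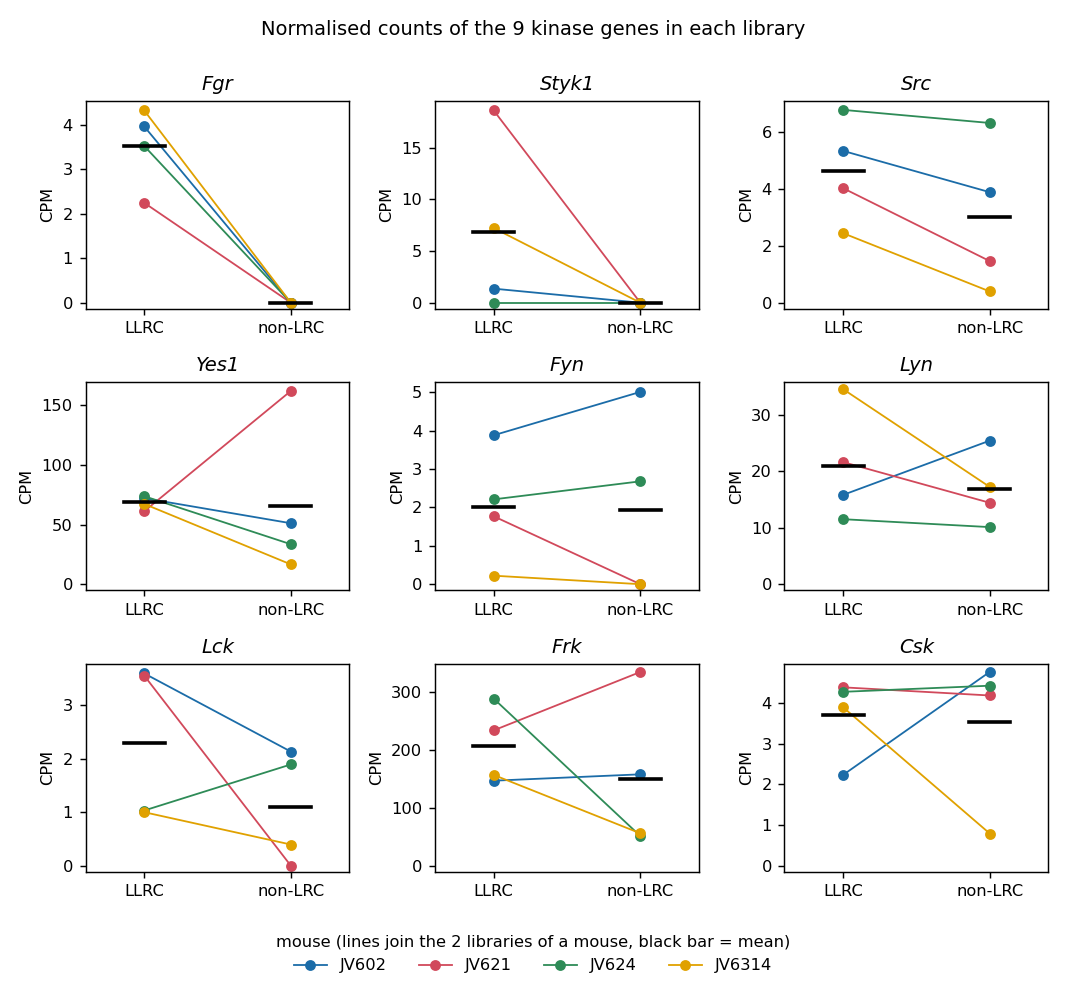
Normalised counts (CPM, linear axis) of the 9 kinase genes in the LLRC and non-LRC libraries, with a line joining the libraries of each of the 4 mice and a black bar at each group mean. Fgr and Styk1 were at 0 in every non-LRC library and Styk1 also in the LLRC library of JV624, while the lines of Yes1, Fyn, Lyn, Lck, Frk and Csk crossed or ran in both directions.

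None of the other 7 genes passed edgeR's quasi-likelihood test between LLRC and non-LRC, where 0 of 13605 genes passed the threshold of 0.05 on the adjusted p (0.0%), and 702 had an unadjusted p under 0.05. Their log2 fold changes, LLRC over non-LRC, ran from 0.04 for Fyn to 1.01 for Lck, each with an adjusted p of 0.9999. The 7 values were above 0, beside 48.9% of all genes tested and a median of -0.01 over all genes, but in 5 of the 7 genes the sign turned under at least 1 other setting. Exact two-sided permutation tests on log2(CPM + 1) gave p from 0.2 for Lck to 0.914 for Csk, and 0.76 to 0.914 after Benjamini-Hochberg adjustment over the 7 genes. These tests moved libraries freely between the groups and, like the main fit, left the pairing by mouse out. In such an unpaired permutation test the smallest p that 4 libraries against 4 allow is 0.029. With DESeq2, which called 1.62% of genes, and with edgeR's exact test, which called 1.17%, Fgr alone of the members passed the threshold, and nothing is read from this because it was chosen on the same contrast.

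Src (chromosome 2, 157418444 to 157471862, plus strand), the founder of the family, was the only one of these 7 genes higher in the LLRC library of all 4 mice, as were 7.74% of the genes tested. With the mice in the order JV602, JV621, JV624 and JV6314, as for the genes after it, the LLRC libraries held 5.33, 4.02, 6.77 and 2.44 CPM and the non-LRC libraries 3.88, 1.46, 6.31 and 0.395 CPM. The differences were small in JV624 and JV602, and the lowest non-LRC values stood on 7 and 2 counts. Without the non-LRC library of JV624 the non-LRC mean went from 3.01 to 1.91 CPM and the log2 fold change to 1.25. The group ranges overlapped, and the log2 fold change was 0.61 (SE 0.78), and edgeR's test gave an adjusted p of 0.9999.

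Yes1 (chromosome 5, 32611171 to 32687057, plus strand), which shares many roles with Src in epithelium, was the steadiest of the group in LLRC. It stood at 72.1, 61.1, 73.8 and 67.3 CPM in the LLRC libraries and at 51.1, 162, 33.5 and 16.6 CPM in the non-LRC libraries, in the same order of mice. The non-LRC libraries thus lay on both sides of a narrow LLRC range. The means were 68.6 ± 5.69 and 65.9 ± 65.9 CPM (SD, n = 4 each), and the log2 fold change was 0.06 (SE 0.61). JV621 alone made up 61.6% of the non-LRC sum, and without it the non-LRC mean was 33.7 CPM. Yes1 was higher in LLRC in 3 of 4 mice, and 36.6% of all genes tested were higher in at least 3 of 4.

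Fyn (chromosome 10, 39368855 to 39565381, plus strand), a kinase of the family active in neural, immune and epithelial cells, was scarce in both groups. Its counts were 40, 15, 15 and 2 in LLRC and 40, 0, 17 and 0 in non-LRC. JV602 was the highest of its group in both fractions, and the 2 non-LRC libraries without reads were those with the fewest genes detected. The means were 2.02 ± 1.5 and 1.92 ± 2.42 CPM (SD, n = 4 each) and the log2 fold change was 0.04 (SE 1.33). Without JV602 the non-LRC mean was 0.894 CPM.

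Lyn (chromosome 4, 3678115 to 3813122, plus strand), which in B and myeloid cells can both start and damp receptor signals, was the most abundant of the members known mainly from leukocytes. The LLRC libraries held 15.8, 21.6, 11.5 and 34.5 CPM and the non-LRC libraries 25.4, 14.4, 10.1 and 17.2 CPM. The groups overlapped, JV602 ran against the other 3 mice, and the highest value was that of JV6314 in LLRC. The log2 fold change was 0.31 (SE 0.46).

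Lck (chromosome 4, 129548344 to 129573641, minus strand), the kinase that starts T cell receptor signalling, had counts of 37, 30, 7 and 9 in LLRC and 17, 0, 12 and 2 in non-LRC. These were 3.59, 3.55, 1.03 and 0.999 CPM against 2.13, 0, 1.89 and 0.395 CPM. JV624 was lower in LLRC and the other mice were higher. The log2 fold change of 1.01 (SE 0.99) was the highest of the 7 and about as large as its error.

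Frk (chromosome 10, 34483399 to 34611278, plus strand), a nuclear and cytoplasmic kinase of epithelial cells with growth-restraining activity, had 147, 234, 289 and 157 CPM in the LLRC libraries and 158, 335, 51.3 and 56.0 CPM in the non-LRC libraries. JV602 and JV621 were lower in LLRC, and JV624 and JV6314 were higher. The means were 207 ± 67.3 and 150 ± 133 CPM (SD, n = 4 each) and the log2 fold change was 0.46 (SE 0.59). Without JV621 the non-LRC mean was 88.6 CPM, and leaving out that non-LRC library alone raised the log2 fold change to 1.23, and edgeR's test gave an adjusted p of 0.488.

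Csk (chromosome 9, 57626646 to 57653631, minus strand), the kinase that closes the family, stood at 2.23, 4.38, 4.27 and 3.89 CPM in LLRC and at 4.76, 4.18, 4.42 and 0.789 CPM in non-LRC. All but 1 of the non-LRC values lay close together, the exception being JV6314 with 4 counts. The log2 fold change was 0.06 (SE 0.63), with 2 mice higher and 2 lower.

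The non-LRC libraries of JV621 and JV6314, which had the fewest genes detected, were also the lowest non-LRC libraries for Src, Fyn and Lck, with 0 to 7 counts each. Their LLRC libraries held 2 to 34 counts of the same genes. The part of the lower number of genes detected in these values was not tested.

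Divided by exon length, so that genes can be compared, the levels of the 9 genes spread widely within a group. In LLRC the order was Frk at 39.3 ± 12.8 CPM per kb, Yes1 at 9.14 ± 0.757, Lyn at 5.12 ± 2.46, Styk1 at 1.16 ± 1.44, Src at 1.06 ± 0.422, Csk at 0.987 ± 0.266, Fgr at 0.911 ± 0.235, Lck at 0.782 ± 0.503 and Fyn at 0.463 ± 0.345 CPM per kb (SD, n = 4). Of the neighbours in this order, only Frk and Yes1 had ranges that did not overlap. Frk was above 91.1% of 13561 genes in LLRC, Yes1 above 68.1%, Lyn above 54.3%, Src above 18.0%, Csk above 16.6% and Fgr above 15.1%. Fgr was thus read in LLRC at a level per length close to those of Src and Csk.

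In non-LRC the order was Frk at 28.6 ± 25.3 CPM per kb, Yes1 at 8.78 ± 8.78, Lyn at 4.12 ± 1.59, Csk at 0.946 ± 0.494, Src at 0.689 ± 0.604, Fyn at 0.441 ± 0.554 and Lck at 0.377 ± 0.363 CPM per kb (SD, n = 4), with Fgr and Styk1 at 0. Here only Lyn and Csk had ranges apart. Frk was above 87.5% of genes.

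Frk and the 6 Src family kinases of the group summed to 45.9 to 71.0 CPM per kb in the LLRC libraries and 17.3 to 89.2 CPM per kb in the non-LRC libraries. Frk, Yes1 and Lyn together made up 90.5% to 95.8% of this sum in LLRC and 86.1% to 99.6% in non-LRC. Frk alone was 60.4% to 77.5% in LLRC and 50.3% to 71.4% in non-LRC, so the shares overlapped between the groups. Fgr made up 2.24% of the sum in JV602, 0.952% in JV621, 1.29% in JV624 and 2.27% in JV6314 among the LLRC libraries.

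**Figure D2:**
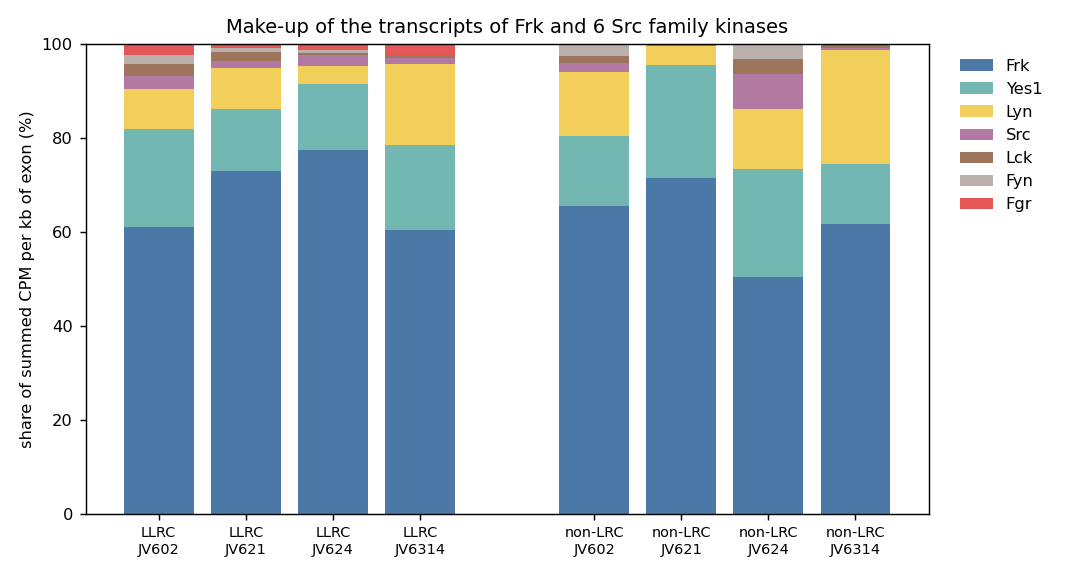
Share (%) of each of 7 kinases in their summed CPM per kb of exon, 1 stacked bar per library, in LLRC on the left and non-LRC on the right. Frk was the largest part of every bar, from 50.3% to 77.5%, and Fgr was seen only at the top of the 4 LLRC bars, at 0.952% to 2.27%.

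Other genes lay over some of the members, and counting was without strand. The exons of Yes1 shared 635 bases (8.46% of its exon length) with Gm10461 on the opposite strand, those of Lyn 248 bases (6.09%) with Gm26857 on the opposite strand, and those of Lck 25 bases (0.854%) with Mir8119. Gm10461 held at most 59 counts in an LLRC library and 32 in a non-LRC library, and Gm26857 at most 31 and 1. Reads that fall on exons of both genes are left out of the counts of either. Gm15614 and Gm43694 overlapped Yes1, Gm6963, Gm16364 and Gm16365 overlapped Fyn, and Gm11805, Gm22781 and 9430025C20Rik overlapped Lyn, in each case without a shared exon base. No gene overlapped Fgr, Styk1, Src, Frk or Csk.

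For each of the 8 members that entered the test, the genes with the most similar pattern were found by Pearson's r of log2 CPM over the 8 libraries, which come from 4 mice and share their depth and group. For Fgr these were Slc1a4 (r = 0.983), Spdya (0.983) and Fut1 (0.972). Slc1a4 and Spdya were unread in non-LRC, and Fut1 had only 2 reads there, in JV602. The 3 r values thus rest mainly on the split between groups by which Fgr was chosen. In LLRC (JV602, JV621, JV624, JV6314) Fgr had 41, 19, 24 and 39 counts. Slc1a4 had 44, 24, 29 and 20, Spdya 48, 62, 82 and 93, and Fut1 30, 19, 20 and 18. Likeness within LLRC alone was not tested. For Src the most similar genes were Gm6823 (0.979), Vps9d1 (0.975) and Faf2 (0.974), and for Yes1 Setmar (0.997) and Ttyh1 (0.991). Fyn was nearest to 1700086O06Rik (0.987), BC025446 (0.985) and Slc46a3 (0.981), and Lck to Cep41 (0.99), Unk (0.983) and Camta2 (0.982). Lyn had the least similar neighbours, Cdc73 (0.946), Ufl1 (0.919) and Gm9703 (0.899). Frk was nearest to 1700001L19Rik (0.995), Dvl3 (0.977) and Alyref (0.976), and Csk to Xpo4 (0.982), Gm43361 (0.974) and Gm24276 (0.964). The members themselves were left out of this search. Between the members tested, r was highest for Yes1 and Frk (0.87) and for Src and Fyn (0.85), and lowest for Src and Lyn (-0.26).

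The other listed kinases of the Src, Frk and Csk families had few reads and did not enter the test. Blk, a B cell kinase, had no read. Ptk6, an epithelial relative of Frk, was read only in LLRC, with 6 counts in JV602 and 1 in JV624. Srms had 22, 15, 5 and 0 counts in LLRC and 8, 0, 0 and 0 in non-LRC, in the same order of mice, and Matk, a kinase related to Csk, at most 10 in a library.

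The other genes of the pathway were taken from 6 lists, the kinases above and 5 more, with 82 genes in all. None of the 50 tested passed the threshold of 0.05 for the adjusted p in edgeR's test (0.0% of all genes did), and 6 of 50 (12.0%) had an unadjusted p under 0.05, as had 5.16% of all genes tested. Of these 6, Ptprc, Nedd9 and Itgav were higher in LLRC and Fcer1g, Fcgr2b and Fcgr3 lower. Nedd9, Itgav and Fcgr3 are named here after their values were seen. Of the 50 genes, 20 had a log2 fold change above 0, and the median was -0.18. DESeq2, which called 1.62% of all genes, and edgeR's exact test, which called 1.17%, each called 3 pathway genes. These were Fcgr2b, Fcer1g and Fcgr3, all lower in LLRC.

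Of the phosphatases that act on the tail or the activation loop of Src kinases, 8 of 9 were tested, with a median log2 fold change of 0.05, 5 above 0 and 3 below. Ptprc, which encodes CD45, had the highest, 3.27 (SE 1.42), and edgeR's test gave an adjusted p of 0.9565. Its counts were 5, 34, 14 and 59 in LLRC and 0, 0, 0 and 7 in non-LRC. Ptpn12, a phosphatase of focal adhesions, had the lowest, -0.65 (SE 0.52), and the highest mean level over both groups, 73.8 CPM, though in LLRC it stood at 57.4 CPM, under the 84.9 CPM of Ptpn2.

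Of the 11 adaptors, inhibitors and degraders of these kinases, 5 were tested, with a median log2 fold change of -0.31 and 1 above 0. The highest was that of Pag1, the membrane adaptor that recruits Csk, at 0.80 (SE 1.03). The lowest was that of Cish, a SOCS family inhibitor, at -0.74 (SE 0.94). Nedd4, a ubiquitin ligase, had the highest level, 372 CPM in LLRC and 461 CPM in non-LRC.

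Of 24 substrates and scaffolds at adhesions, 21 were tested, 8 with a log2 fold change above 0 and 13 below, with a median of -0.15. Eps8, an actin regulator and receptor substrate, was the highest at 1.52 (SE 0.89) and Cdcp1, a transmembrane protein that Src phosphorylates, the lowest at -0.87 (SE 0.59). The log2 fold change of Nedd9, a docking protein of the Cas family, was 0.99 (SE 0.40), and edgeR's test gave an adjusted p of 0.8929. Cav1, which encodes caveolin, had the highest level of the list at 635 CPM in LLRC and 675 CPM in non-LRC.

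Of 12 receptors upstream of Src in epithelium, 11 were tested, with a median log2 fold change of 0.11, 6 above 0 and 5 below. Itgb6, an integrin subunit of injured or remodelled epithelium, was the highest at 2.03 (SE 1.58), with counts of 44, 33, 122 and 61 in LLRC and 0, 0, 50 and 0 in non-LRC. Itgav, the subunit that pairs with it, stood at 0.95 (SE 0.39), and edgeR's test gave an adjusted p of 0.9174. Ephb4, an ephrin receptor, was the lowest at -0.83 (SE 0.67), and Itgb1 had the highest level at 381 CPM in LLRC and 474 CPM in non-LRC.

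Of 21 immune receptors and kinases that work with Fgr, Lyn and Lck in leukocytes, only 5 were tested and all 5 had log2 fold changes below 0, with a median of -2.78. Fcer1g, the signalling chain of Fc receptors, had counts of 14, 2, 3 and 3 in LLRC and 15, 20, 53 and 112 in non-LRC, a log2 fold change of -3.89 (SE 0.96), and edgeR's test gave an adjusted p of 0.3192. Fcgr2b, an inhibitory Fc receptor also known from liver sinusoidal endothelium, had the highest level of the list in non-LRC (49.2 CPM), though in LLRC its 7.13 CPM lay under the 13.7 CPM of Tec, and a log2 fold change of -2.78 (SE 0.57), and edgeR's test gave an adjusted p of 0.1583. Fcgr3 stood at -3.81 (SE 1.04). Tec, a cytoplasmic kinase, at -0.33 (SE 0.48), was the highest of the 5, and Itgam was at -0.36 (SE 0.45). Itgb2, Cd3e and Cd79a, the partners of Fgr, Lck and Lyn in integrin, T cell and B cell signalling, had no read in any library.

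**Figure D3:**
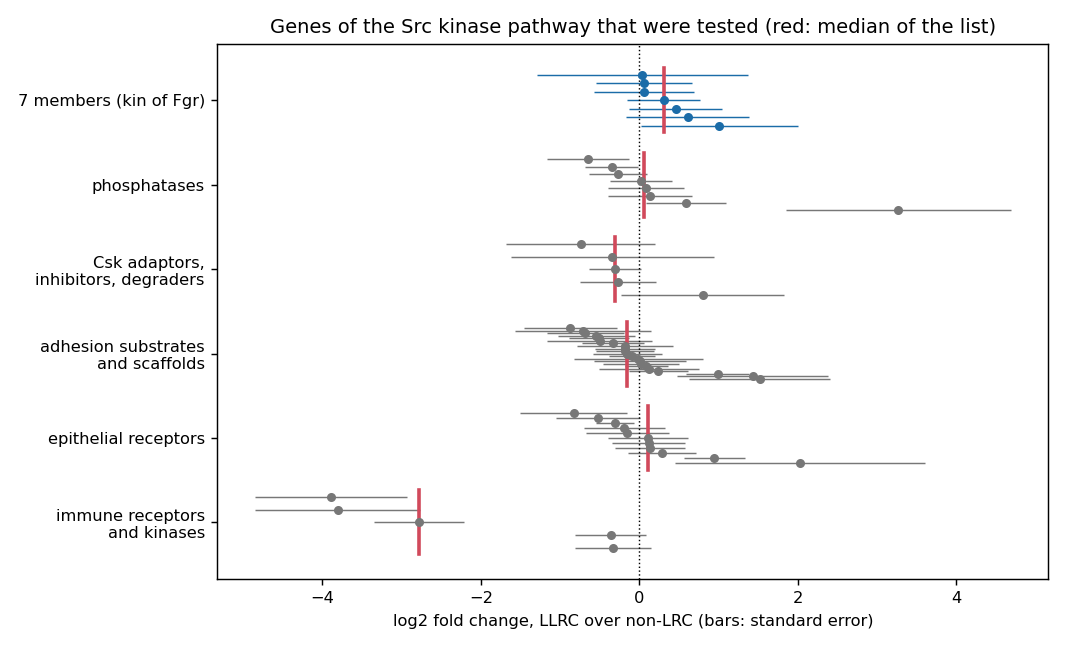
Log2 fold change (LLRC over non-LRC) with its standard error for the 7 members not chosen on this comparison and for the 50 tested genes of 5 pathway lists, with the median of each list in red. The 7 members lie between 0.04 and 1.01, and the immune list lies wholly below 0 with a median of -2.78.

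Because Fgr, Lyn and Lck are known mainly from leukocytes, marker lists of the cell types a sort could carry over were set beside them. The 10 general leukocyte markers summed to 4.85 to 15.3 CPM in LLRC and 8.02 to 46.4 CPM in non-LRC, 2 of the 10 were tested, and Rac2 and Was had no read. Of the 10, 5 had a lower mean in LLRC and 3 a higher one. The first of the list, Ptprc, was higher in LLRC (above), while Arhgdib, its most abundant gene, averaged 4.76 CPM in LLRC and 24.0 CPM in non-LRC. In LLRC, in the same order of mice, Ptprc counts of 5, 34, 14 and 59 stood beside Fgr counts of 41, 19, 24 and 39.

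The 14 macrophage and monocyte markers summed to 99.9 to 143 CPM in LLRC and 95.4 to 149 CPM in non-LRC, with Cd14 the most abundant at 97.3 CPM in LLRC and 97.9 CPM in non-LRC. Csf1r, the receptor of the macrophage growth factor, was read in every library, at 17.3 CPM in LLRC and 19.3 CPM in non-LRC.

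Of these 14 markers, 12 had a lower mean in LLRC and 2, Mpeg1 and Ccr2, a higher one, and 6 had no read in any LLRC library. Adgre1, the defining macrophage gene, had 0 counts in all LLRC libraries and 0, 0, 39 and 8 in non-LRC. Mpeg1 had 32, 12, 0 and 35 counts in LLRC and 11, 0, 7 and 2 in non-LRC, a log2 fold change of 1.49 (SE 1.21), and Ccr2 had 0, 6, 17 and 0 in LLRC and 1, 0, 4 and 0 in non-LRC. Clec4f, C1qa, C1qb, C1qc and Marco were the others without an LLRC read, and Lyz2 averaged 0.0834 CPM in LLRC and 1.8 CPM in non-LRC.

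Csf1r, Mpeg1, Ccr2, Clec4f, C1qa, C1qb, C1qc, Marco, Lyz2, Trac, Cr2, Egfl7, Vwf and Ptpn2 are named after their values were seen. The 11 neutrophil markers summed to 0 to 90.5 CPM in LLRC and 0.158 to 581 CPM in non-LRC. Both high values were those of JV621, where S100a8, the first and the most abundant of the list, had 726 and 2732 counts, and Mpo, Elane and Camp had no read anywhere. Fgr was at its lowest LLRC level in JV621 and at 0 in the non-LRC library with 2732 counts of S100a8.

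Lymphocyte markers were nearly absent. The 12 T and NK cell markers summed to at most 0.872 CPM in LLRC and 2.17 CPM in non-LRC, and 7 of them, Cd3d, Cd3e and Cd3g included, had no read, beside Lck at 0.999 to 3.59 CPM in LLRC. Trac was the highest of them in LLRC, at 0.218 CPM from 9 counts in JV602 alone, and Trbc2 in non-LRC, at 0.589 CPM against 0.0296 CPM in LLRC. The 8 B cell markers summed to 0.147 to 1.3 CPM in LLRC and 0 to 2.76 CPM in non-LRC, and Cd79a and Cd22 had no read. Ighm averaged 0 CPM in LLRC and 0.673 CPM in non-LRC, where it was the highest. Cr2, the highest in LLRC at 0.516 CPM, ran the other way, with counts of 1, 11, 0 and 6 in LLRC and 0 in every non-LRC library. The 8 mast cell and platelet markers summed to 2.04 to 4.85 CPM in LLRC and 0.626 to 5.33 CPM in non-LRC, with Cpa3 unread and Pf4 the highest at 1.87 and 1.56 CPM.

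Endothelial markers were read less in LLRC, although none passed the threshold in edgeR's test. The 12 endothelial markers summed to 30.7 to 60.2 CPM in LLRC and 218 to 671 CPM in non-LRC, and all 10 that were tested were below 0 on the log2 scale, from -4.66 for Vwf to -2.42 for Egfl7, with Pecam1 at -4.27 and Kdr, the most abundant over both groups, at -3.78, beside the Fc receptor genes above. The 8 stellate cell and fibroblast markers summed to 274 to 907 CPM in LLRC and 703 to 2850 CPM in non-LRC, with Lrat at 5.92 and 46.6 CPM and Dcn at 341 and 1280 CPM. Of these 8, 7 had a lower mean in LLRC, and Reln, named after its values were seen, a higher one, 235 CPM against 188 CPM. The 8 pancreatic acinar markers were high in a single library, the non-LRC library of JV6314, at 1050 CPM, against 0.209 to 2.38 CPM in the other non-LRC libraries and 0.118 to 0.388 CPM in LLRC. That library held 749 of the counts of Prss2 and 1388 of those of Cpb1, and no other library had more than 1 of either. The 12 hepatocyte markers summed to 2960 to 3470 CPM in LLRC and to 3180, 2210, 7050 and 6410 CPM in the non-LRC libraries, higher than in LLRC in JV624 and JV6314 and lower in JV602 and JV621. Of the 12 hepatocyte markers, 11 had a log2 fold change below 0, with a median of -1.71, and Alb, the most abundant, was the exception at 0.01, with 2340 CPM in LLRC and 2320 CPM in non-LRC. The part of other cell types in the levels of the kinases was not tested.

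**Figure D4:**
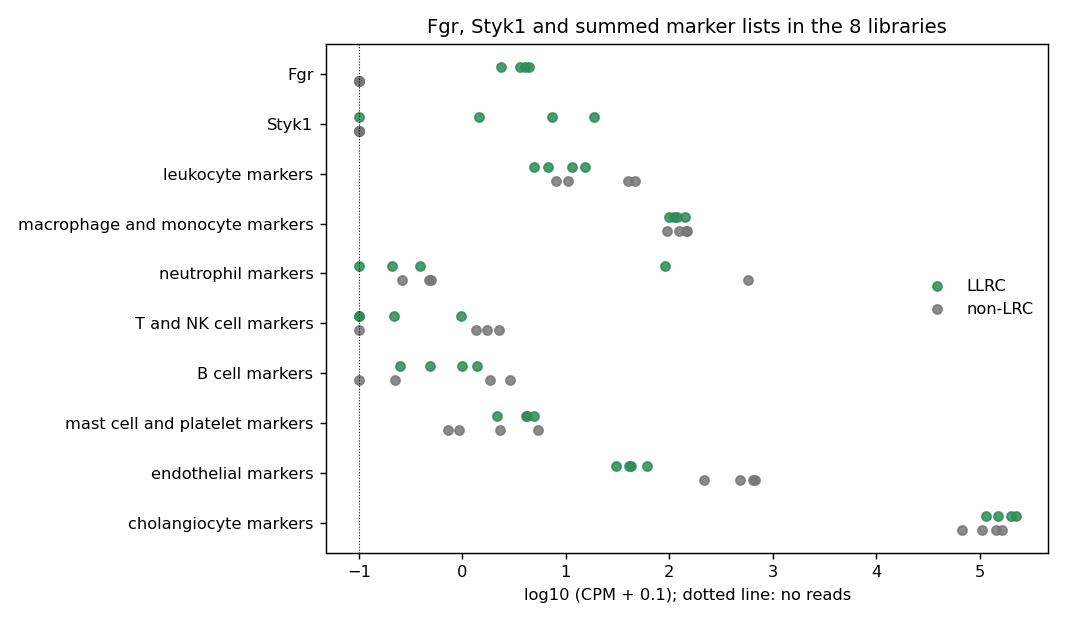
Level of Fgr and Styk1 and summed level of 8 marker lists, as log10 (CPM + 0.1), in the 4 LLRC (green) and 4 non-LRC (grey) libraries, with a dotted line where no read was counted. The Fgr values of LLRC and non-LRC stand apart, which is how the gene was chosen and so for 2.15% of the genes tested, and the leukocyte, macrophage, neutrophil and lymphocyte sums of the groups overlap, though 12 of the 14 macrophage markers had a lower mean in LLRC, and the endothelial sums are 30.7 to 60.2 CPM in LLRC and 218 to 671 CPM in non-LRC.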

How the data were processed

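RNA-seq libraries of LLRC and non-LRC from 4 mice were analysed. The authors counted reads with HTSeq in union mode, without strand, over exons of GRCm38.p4, and the authors deposited raw counts for each gene. In union mode reads that fall on 2 genes are not counted. The aligner is not given in the sources used here. The deposited table also holds the authors' own edgeR comparison (edgeR 3.2.4), which was not used.

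Counts of 13605 genes that passed filterByExpr were scaled by TMM (factors 0.816 to 1.23) and tested with edgeR 4.0.16 in R 4.3.3 by the quasi-likelihood test (LLRC against non-LRC, no other term), with Benjamini-Hochberg adjustment and a threshold of 0.05. Library totals of 4670132 to 9851819 counts put 3 counts at 0.291 to 0.626 CPM. CPM per kb used exon lengths of GENCODE M21, which gave a symbol to 46005 of 46603 rows. Correlations used a prior count of 2. The 2 libraries of a mouse come from the same animal, as the labels state. Across genes, their deviations from the mean of each group had correlations of 0.0961 (JV602), 0.0737 (JV621), 0.00334 (JV624) and 0.171 (JV6314).

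The members and gene lists were chosen with earlier results of these data known. Named were all 9 members, in each pathway list any gene past the threshold, the highest and lowest log2 fold change and the highest mean level, the leading and the most abundant gene of marker lists, genes overlapping a member, and up to 3 genes most alike to each member tested. Some genes these rules name are not reported here. Alternatives were other scalings, filters and tests (DESeq2 1.42.0, limma 3.58.1, edgeR's exact test), a fit blocked by mouse, the omission of each library in turn and, chosen after seeing the data, both libraries of each mouse left out. The scripts were tested on simulated data.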

Additional observations from a re-analysis of the deposited data

Results flagged for a closer look

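The Csk level of 0.789 CPM in the non-LRC library of JV6314, from 4 counts, stood apart from those of the other non-LRC libraries, at 4.18, 4.42 and 4.76 CPM. Its gap to the nearest value, over the whole range of the group, exceeded the limit of Dixon's test. It was 1 such value in 16 groups of 4 libraries examined for the members, and chance alone gives some at this limit. The same library had the lowest non-LRC values of Src and Yes1.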

How the results depend on the processing

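The number of genes past the threshold was 0 with edgeR's quasi-likelihood test, where 702 had an unadjusted p under 0.05. It was 11 without a filter on low counts, 221 with DESeq2, 159 with edgeR's exact test and 0 with limma (886 unadjusted), and 0 to 6 with a library or mouse left out, the 6 without the non-LRC library of JV602. With the mouse as a replicate block 0 genes, 0 members and 0 pathway genes passed (569 genes unadjusted), and the log2 fold changes under this pairing were 1.06 for Src, 0.60 for Yes1, 1.05 for Fyn, 0.28 for Lyn, 1.28 for Lck, 0.82 for Frk and 0.22 for Csk, which for Src, Yes1, Fyn, Frk and Csk is over 1.5 times the unpaired value. DESeq2 and the exact test each called 1 member, Fgr, whose choice rests on this contrast, and 3 pathway genes, Fcgr2b, Fcer1g and Fcgr3, all lower in LLRC. The cause of these differences between tests was not tested.

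Signs turned for 5 members. The log2 fold change of Yes1 was -0.02 with DESeq2 size factors, -0.02 with DESeq2, and -0.26 to 1.08 with libraries left out. For Fyn it was -0.01 by library size only, -0.22 with limma and -0.48 to 1.11 with libraries left out. For Csk it was -0.04 by library size only and -0.30 to 0.39 with libraries left out. For Lyn and Frk it turned only with libraries left out, -0.03 to 0.69 and -0.03 to 1.23. Src stayed at 0.25 to 1.25 under all settings and Lck at 0.34 to 1.61 under those where it was tested. A count of 0 allows a level of up to 0.291 to 0.626 CPM, depending on the library.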
